A study of Caenorhabditis elegans with 2 samples.

Results

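Heterochronic genes set the timing of cell fates in the Caenorhabditis elegans larva. The 10 genes lin-14, lin-28, lin-29, lin-41, lin-42, lin-46, hbl-1, lin-66, mab-10 and daf-12 were taken by symbol from the 19973 annotated protein-coding genes. Around each of them, every peak with its summit in the gene body or within 5 kb of it was collected from 4 lists of chromatin immunoprecipitation and sequencing (ChIP-seq) peaks on the ce11 genome build. In each list the signal of a peak is the authors' own value, on a scale that no label or file states. A peak list holds no expression values, so the labelled stage could not be checked against marker genes.

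The study mapped sites of a tagged transcription factor in whole L4 larvae, which are in the last stage before adulthood, in 2 biological replicates of 1 group. Both came from strain OP355, which carries the mutation unc-119(tm4063) and an integrated transgene, wgIs355, and sexes were pooled. The animals' exact age is unknown, there was no second genotype or treatment to compare with, control libraries were not analysed here, and the labels do not say which promoter drives the transgene. The labels disagree on the tagged protein: the strain and antibody fields name mdl-1, a Mad-type partner of Max, and a free-text description names ZK337.2, which RefSeq calls klu-1. The IDR list held 14 peaks at mdl-1 with signals up to 1353 and 1 at klu-1 with a signal of 92.4.

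The heterochronic pathway works as a relay of regulators. Early larval fates depend on the nuclear factor LIN-14, the RNA-binding protein LIN-28 and the zinc finger protein HBL-1, each of which is lowered in turn, largely by microRNAs of the lin-4 and let-7 families. Falling LIN-28 allows mature let-7 microRNA to accumulate, let-7 lowers the TRIM-NHL protein LIN-41, and the zinc finger factor LIN-29 with its cofactor MAB-10 then drives the switch of the skin to the adult state at the end of larval life. LIN-42 is related to the circadian protein Period, and DAF-12 is a nuclear hormone receptor that ties the programme to steroid signals from diet and environment.

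Peaks were found at 9 of the 10 genes in the list of peaks that passed the authors' irreproducible discovery rate (IDR) comparison. Of all protein-coding genes, 36.3% had an IDR summit in the same region. The 9 genes held 37 IDR peaks, unevenly spread, and lin-46 held none. There were 11 at lin-14, 6 at lin-42, 5 at lin-41, 4 at hbl-1, 3 each at lin-28, mab-10 and daf-12, and 1 each at lin-29 and lin-66. Only 5 genes had a summit in the promoter window, set from 1000 bp upstream to 200 bp downstream of the annotated gene start: lin-14, lin-28, hbl-1, lin-66 and mab-10. The share of all protein-coding genes with such a summit was 10.9%. Long genes offer more room for peaks, and daf-12 (30968 bp), lin-14 (20312 bp), lin-42 (19124 bp) and lin-29 (17702 bp) are long. No test was made of these counts, because the genes were chosen with earlier results of these data known.

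**Figure D1:**
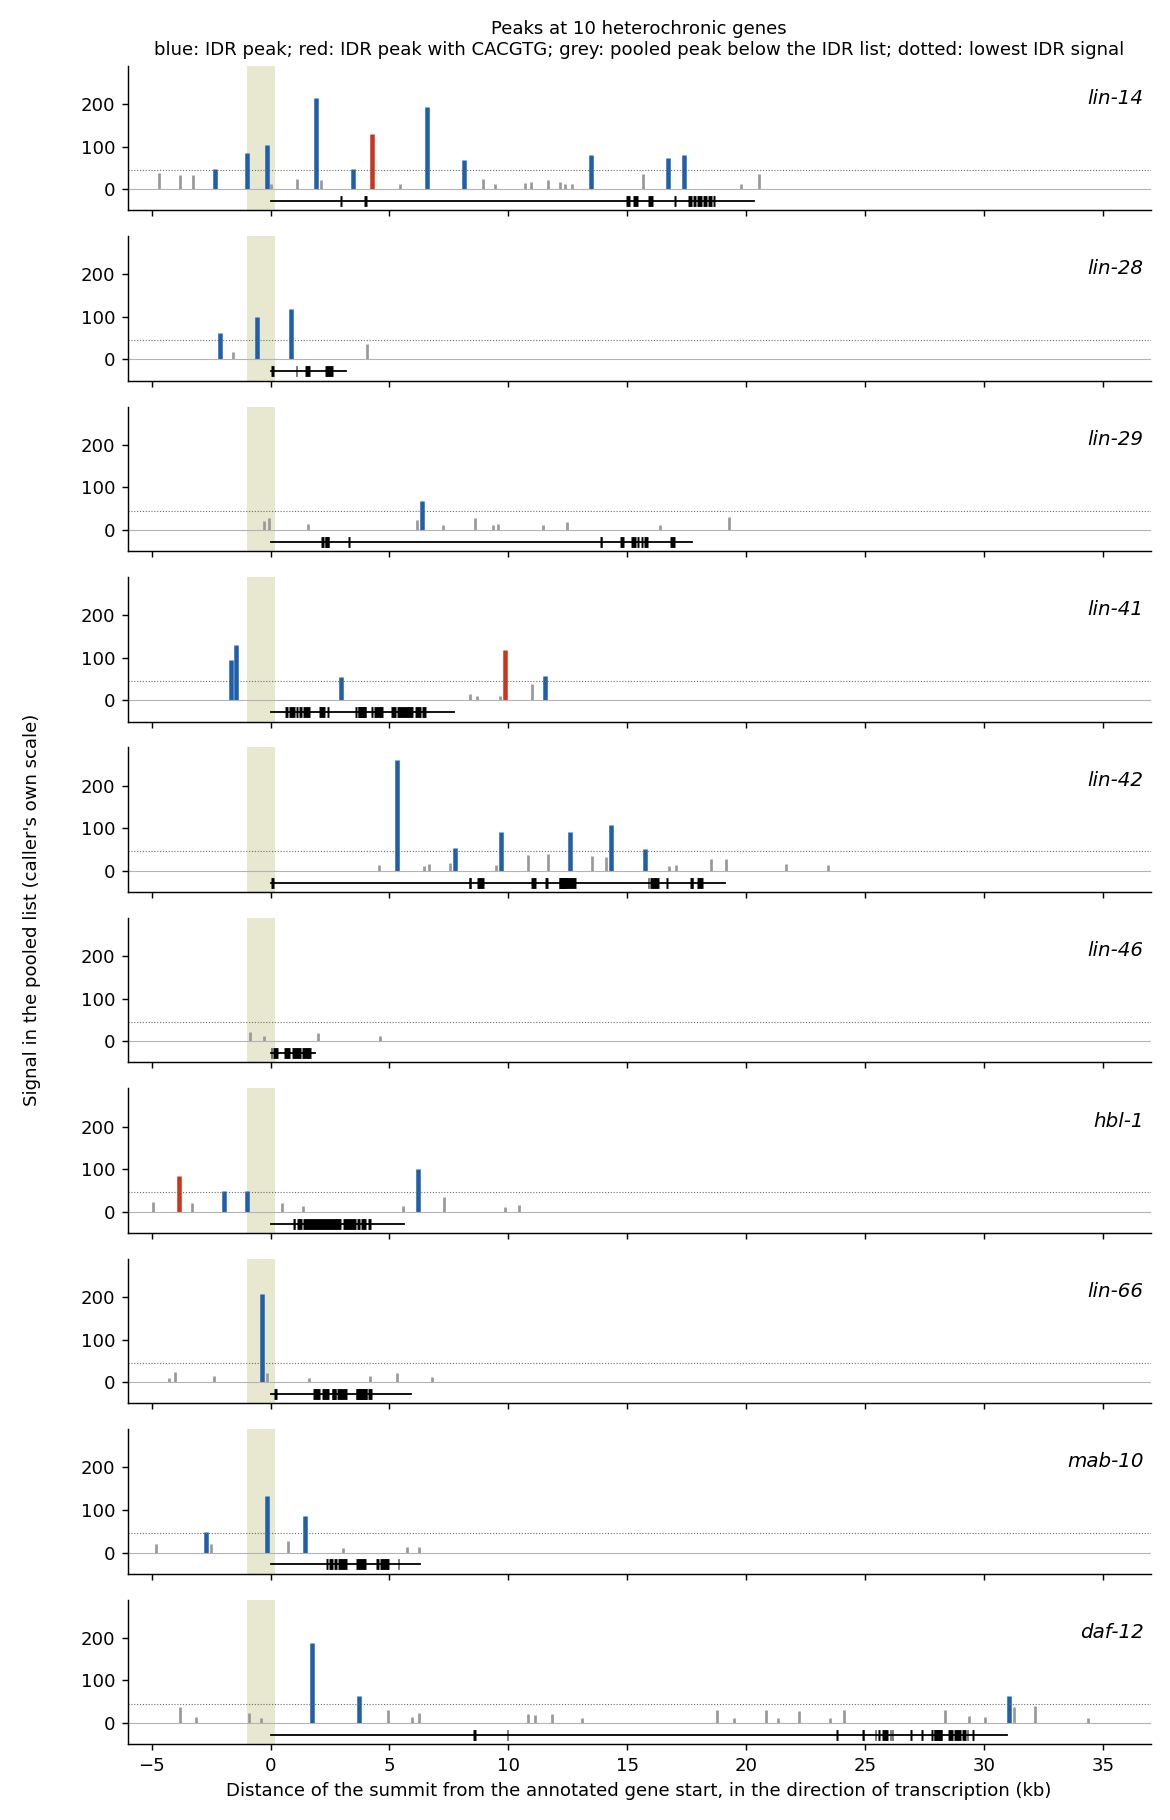
Peaks at the 10 genes, drawn to scale by the distance of the summit from the annotated gene start (kb) against signal in the pooled list. IDR peaks are blue, or red with CACGTG, other pooled peaks are grey, the dotted line is the lowest IDR signal, the promoter window is shaded, and the gene (line) and its coding exons (blocks) stand below. Tall bars stand inside lin-14, lin-42 and daf-12, the bar at lin-66 stands in its promoter window, and lin-46 has grey bars only.

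The sequences around the strongest summits and around a pair of E-box summits are given for the letters they hold. The 7 windows below, each the summit with 100 bp to either side (201 bp, plus strand of ce11, from the RefSeq genome), show the strongest peak of each of the 5 genes with the highest peaks and the E-box peaks at lin-14 and hbl-1. Capitals mark the E-box CACGTG, the site that Myc, Max and Mad dimers bind, the repeat GAGAGA on either strand, and ACGCAG on either strand. The lin-42 window is chrII:1246931-1247131, the lin-14 window chrX:11467360-11467560, the lin-66 window chrIV:13887634-13887834, the daf-12 window chrX:10637533-10637733 and the mab-10 window chrII:10527814-10528014. The E-box windows are chrX:11469714-11469914 at lin-14 and chrX:5818178-5818378 at hbl-1. Intron names are those of the longest transcript with an intron there, and not every transcript of the gene has that intron.
lin-42 intron: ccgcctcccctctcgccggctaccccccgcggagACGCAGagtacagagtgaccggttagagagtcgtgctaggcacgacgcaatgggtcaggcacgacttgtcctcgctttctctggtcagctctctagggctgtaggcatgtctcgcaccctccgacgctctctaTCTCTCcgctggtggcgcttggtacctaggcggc
lin-14 first intron: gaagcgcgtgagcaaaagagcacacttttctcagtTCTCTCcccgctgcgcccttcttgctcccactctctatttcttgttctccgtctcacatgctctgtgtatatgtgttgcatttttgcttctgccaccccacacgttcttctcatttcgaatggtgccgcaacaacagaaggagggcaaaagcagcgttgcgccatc
lin-66 promoter: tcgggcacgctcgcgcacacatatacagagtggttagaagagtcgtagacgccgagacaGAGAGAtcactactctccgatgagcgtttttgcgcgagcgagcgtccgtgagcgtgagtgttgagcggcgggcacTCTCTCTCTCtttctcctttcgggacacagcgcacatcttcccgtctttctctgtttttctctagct
daf-12 first intron: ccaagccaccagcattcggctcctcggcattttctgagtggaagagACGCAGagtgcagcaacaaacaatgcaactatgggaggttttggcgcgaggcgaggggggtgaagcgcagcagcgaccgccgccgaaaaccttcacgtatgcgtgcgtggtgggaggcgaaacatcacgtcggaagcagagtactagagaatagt
mab-10 promoter: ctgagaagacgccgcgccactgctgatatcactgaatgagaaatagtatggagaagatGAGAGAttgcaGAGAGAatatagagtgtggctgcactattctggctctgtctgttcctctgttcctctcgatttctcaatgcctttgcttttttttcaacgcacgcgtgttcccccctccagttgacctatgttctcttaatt
lin-14 E-box peak: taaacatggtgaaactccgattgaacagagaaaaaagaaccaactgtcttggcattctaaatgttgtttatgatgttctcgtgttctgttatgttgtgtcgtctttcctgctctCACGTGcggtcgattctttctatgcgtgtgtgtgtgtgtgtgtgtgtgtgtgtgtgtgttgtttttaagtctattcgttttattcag
hbl-1 E-box peak: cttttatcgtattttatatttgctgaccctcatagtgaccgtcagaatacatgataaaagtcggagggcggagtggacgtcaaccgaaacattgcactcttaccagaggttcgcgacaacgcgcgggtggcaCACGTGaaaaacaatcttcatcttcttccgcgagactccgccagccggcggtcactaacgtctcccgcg

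CACGTG was in none of the 5 windows around the strongest peaks. Matches to GAGAGA on either strand stood in 4 of them, all but daf-12, with 4 matches at lin-66, overlaps counted. The lin-42 and daf-12 windows each held ACGCAG once, within GACGCAGA, which is itself part of a longer stretch that both windows share. In the E-box windows, CACGTG began 14 bp past the summit at lin-14 and 32 bp past it at hbl-1, counted along the plus strand.

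The early regulators lin-14, lin-28 and hbl-1 carried 18 of the 37 IDR peaks. lin-14 (WBGene00003003, chrX:11465560-11485871, plus strand), which encodes the nuclear factor of the first larval fates, had the most. Only 7 of all protein-coding genes, lin-14 among them, had 11 or more IDR summits in the gene body and 5 kb flanks. Per length this was 3.63 IDR peaks per 10 kb, against 0.585 for the X chromosome as a whole and 0.428 for the genome, and 0.365% of genes had a rate at least as high. Of the 11 summits, 8 lay in the gene body, all in introns of the longer annotated transcript, 1 in the promoter window and 2 further upstream.

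The strongest lin-14 peak (chrX:11467394-11467563) lay in the first intron of the longer of its 2 annotated transcripts, 1900 bp past the gene start and in the start window of the non-coding gene T25C12.7. Its signal was 105 in replicate 1 and 107 in replicate 2, and 213 in the pooled list, rank 318 of 4293. The next, in the third intron 6580 bp past the start (chrX:11472013-11472248), had 119.2 in replicate 1, 72.4 in replicate 2 and 194 pooled, rank 402. Neither window held CACGTG, and each held GAGAGA once on either strand. In replicate 1 the second of these was the stronger, in replicate 2 the first.

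The E-box peak of lin-14 (chrX:11469616-11470011), also in the third intron, had a signal of 44.4 in replicate 1, 85.4 in replicate 2 and 131 pooled. The promoter peak, 161 bp upstream of the start (chrX:11465201-11465596), had 48.6, 63.7 and 102.4 in the same order. Its summit also lay in the start window of the non-coding gene T25C12.8. The other 7 lin-14 peaks ran from 46.3 to 84.8 in pooled signal, the lowest just above the IDR list's own lowest value of 45.6. The highest of these 7, 1006 bp upstream, lay in the start windows of the non-coding genes T25C12.9 and T25C12.10. Position alone does not assign that peak to lin-14. Replicate 2 was higher than replicate 1 at 9 of the 11 lin-14 peaks, whereas replicate 1 was higher at 22 of the 37 peaks of all 10 genes.

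lin-28 (WBGene00003014, chrI:8407630-8410804, minus strand) encodes the RNA-binding protein that blocks let-7 maturation. Its 3 IDR peaks lay close together around the start of a short gene. The peak with the highest pooled signal (chrI:8409733-8410128) had 69.9 in replicate 1, 46.6 in replicate 2 and 118 pooled. Its summit lay in the first intron of one transcript and 11 bp upstream of the start of the other. The promoter peak (chrI:8411159-8411554, 553 bp upstream) had 49.8 in replicate 1, 52.8 in replicate 2 and 99.6 pooled, so the order of these peaks differed between the replicates. The third (chrI:8412734-8413129) had 35.996, 29.3 and 62.5, and its summit, 2128 bp upstream of lin-28, lay in an intron of the neighbouring gene F02E9.7.

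hbl-1 (WBGene00001824, chrX:5822142-5827755, plus strand) encodes a zinc finger protein related to the fly segmentation factor Hunchback. No IDR summit lay in its body. The downstream peak (chrX:5828133-5828528), 576 bp past the gene end, had 72.1 in replicate 1, 26.5 in replicate 2 and 99.4 pooled. This was the largest gap between the replicates among the 37 peaks, a log2 ratio of 1.45, and its summit also lay 1104 bp upstream of the start of the next gene, acp-5. The E-box peak 3864 bp upstream (chrX:5818080-5818475) had 41.5 in replicate 1, 41.9 in replicate 2 and 84.1 pooled, and it was the strongest hbl-1 peak in replicate 2. It lay in the start windows of the non-coding genes F13D11.11 and F13D11.14, so it cannot be assigned to hbl-1 by position. The promoter peak (chrX:5820965-5821360) had 31.1 in replicate 1 and 49.6 pooled, and lay 979 bp upstream, near the outer edge of the window. Its replicate 2 value of 18.5 belongs to a stronger overlapping neighbour with its summit 1274 bp upstream. The replicate 2 peak 980 bp upstream had 15.3. A last peak 1939 bp upstream (chrX:5820005-5820400) had 22.2, 28.9 and 48.6. It lay in the start windows of the non-coding genes F13D11.17 and F13D11.20, so position does not assign it to hbl-1 either.

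lin-46 and lin-66 act to end early fates, lin-46 as a scaffold-like protein that restrains HBL-1 and lin-66 in part by lowering LIN-28. They differed in the peak lists. lin-66 (WBGene00001562, chrIV:13888079-13893986, plus strand) had a single IDR peak, in its promoter (chrIV:13887550-13887796, 345 bp upstream), with 118.8 in replicate 1, 89.2 in replicate 2 and 208 pooled, rank 337. Its other 8 pooled peaks had signals of at most 22.99. Replicate 1's own list held a further promoter-window peak at lin-66, 176 bp upstream, with a signal of 45.9. lin-46 (WBGene00003031, chrV:12968855-12970730, plus strand) had 4 pooled peaks and 3 in each replicate's list, none in the IDR list. The highest lin-46 signals were 18.9 in replicate 1, 13.1 in replicate 2 and 21.1 in the pooled list. The pooled value lay under the lowest IDR signal of 45.6, which is on the pooled scale. The highest was 859 bp upstream of lin-46 in the pooled list and 860 bp upstream in replicate 1, whereas in replicate 2 it lay past the gene end. A lack of an IDR peak does not show that the site is empty, since the depth of the libraries is not known.

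lin-41 (WBGene00003026, chrI:9334800-9342496, minus strand), the let-7 target that encodes a TRIM-NHL RNA-binding protein, had no summit in its promoter window. The highest of its 5 IDR peaks lay just beyond the window, 1444 bp upstream (chrI:9343742-9344137), with a pooled signal of 130.2. A second summit 1643 bp upstream (chrI:9343941-9344336) had 95.2, and the peaks overlap. By the rule of the strongest overlapping peak, both took the same replicate values, 69.0 in replicate 1 and 68.7 in replicate 2. Each replicate's list also held a weaker peak there. It lay 1652 bp upstream with 37.2 in replicate 1, and 1725 bp upstream with 25.4 in replicate 2. The E-box peak of lin-41 (chrI:9332448-9332843) had 61.6 in replicate 1, 59.3 in replicate 2 and 118.7 pooled. It lay 2154 bp past the end of lin-41 and within the start windows of the microRNA gene mir-79 and the non-coding gene C12C8.8, so it cannot be assigned to lin-41 by position. The intronic peak (chrI:9339350-9339745) had 25.6, 21.9 and 54.0, and the last downstream peak (chrI:9330740-9331135) had 34.9, 22.2 and 56.8.

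The late genes lin-29 and mab-10, whose products act as partners in the adult switch, had 1 and 3 IDR peaks. lin-29 (WBGene00003015, chrII:11917642-11935343, minus strand) encodes the zinc finger factor. Its IDR peak (chrII:11928779-11929174) lay 6366 bp past the gene start in the fourth intron, with 33.1 in replicate 1, 30.4 in replicate 2 and 67.3 pooled, below the median of all IDR peaks, 75.0. The window around this summit held GAGAGA 6 times on either strand, overlaps included, and the summit lay in the start window of the non-coding gene Y17G7A.4. At the lin-29 gene start the pooled list had peaks with signals of 28.5 and 20.2, which did not pass IDR. mab-10 (WBGene00003107, chrII:10528084-10534380, plus strand) encodes a NAB-type cofactor. Its promoter peak (chrII:10527898-10528008, 170 bp upstream) had 65.5 in replicate 1, 68.4 in replicate 2 and 132 pooled, rank 825. A first-intron peak (chrII:10529336-10529731) had 48.2, 36.1 and 84.9 and lay 801 bp upstream of a later annotated transcript start. The start window of the non-coding gene R166.8 also covers it. The third (chrII:10525153-10525548) had 20.8, 25.8 and 48.0 and fell in the promoter window of the neighbour F59B10.6.

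lin-42 (WBGene00018572, chrII:1233236-1252359, minus strand), the Period-related gene, had 6 IDR peaks, all within the gene body. Its strongest (chrII:1246885-1247133) was also the strongest of all 37: its signal was 139.6 in replicate 1, 118 in replicate 2 and 261 pooled, rank 198 of 4293. It lay 5328 bp past the gene start in the first intron of the long transcripts, and the start windows of the non-coding genes F47F6.13 and F47F6.15 also cover it. The other lin-42 peaks ran from 51.8 to 108 in pooled signal. Annotated lin-42 transcripts begin at 5 positions. Summits lay 572 bp upstream of one internal start and 335 and 327 bp downstream of others, and the peaks at the last pair fell in a 5' UTR and a coding exon of some transcripts and in introns of others. Counted from the gene start alone, lin-42 had no promoter summit, and the pooled list had none there either.

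daf-12 (WBGene00000908, chrX:10635908-10666875, plus strand), the nuclear hormone receptor gene and the longest of the 10, had 3 IDR peaks, or 0.732 per 10 kb, against 0.585 for the X chromosome and 0.428 for the genome, and 29.5% of genes had a rate at least as high. The strongest (chrX:10637465-10637768) lay 1725 bp past the start, in the first intron of only 1 of the 10 annotated transcripts. It had 103.7 in replicate 1, 88.8 in replicate 2 and 189 pooled, rank 420. Another in the same intron (chrX:10639417-10639812) had 40.3, 22.03 and 63.3. The last (chrX:10666780-10667175), 103 bp past the gene end, had 31.9, 27.7 and 63.3. It lay in the start windows of non-coding genes, F11A1.11 among them. The pooled list held 27 peaks at daf-12, and its promoter window held only weak ones, of 23.8 and 11.2.

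Introns held more of these peaks, and promoters fewer, than in the IDR list as a whole, as shares without a test. The 37 peaks were collected from gene bodies and their 5 kb flanks, several of the genes being long. The shares therefore depend on the region searched, and a preference for introns over promoters was not tested. Of the 37 summits 19 lay in introns (51.4%), where 24.3% of all IDR summits did, and 6 in a protein-coding promoter window (16.2%), where 43.0% of all did. A further 10 were intergenic, 1 was in a coding exon and 1 in a 5' UTR. Of the 20 summits in a member's body outside its promoter window, 18 were in an intron and in no annotated coding exon or UTR. Many of these introns belong to only some transcripts of the gene, such as 1 of 10 at daf-12. Of the 20, 7 were in the first intron of the longest transcript with an intron there. The strongest peak was in the gene body at lin-14, lin-28, lin-29, lin-42 and daf-12, in the promoter window at lin-66 and mab-10, upstream at lin-41 and downstream at hbl-1. With the promoter window drawn around every annotated transcript start, 6 of the 10 genes had a summit, lin-42 in addition, against 12.1% of all protein-coding genes, and 15 of the 37 summits were left as intronic.

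**Figure D2:**
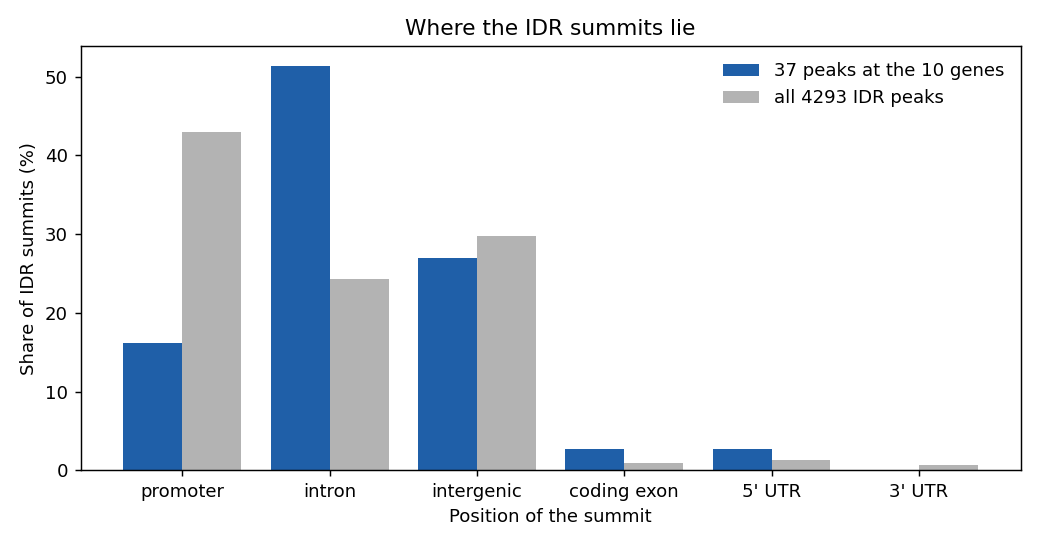
Share of IDR summits (%, bars from 0) by position for the 37 peaks at the 10 genes and for all 4293 IDR peaks. The bar for introns is taller for the 10 genes (51.4% against 24.3%) and the bar for promoters shorter (16.2% against 43.0%). The 37 peaks come only from gene bodies and 5 kb flanks, which bears on these shares.

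Few of the peaks carried the E-box. Among the 37 windows of 100 bp to either side of a summit, 3 held CACGTG (8.11%), against 18.4% of all IDR peaks and 3.33% of all 201 bp windows of the genome. The 3 were the intronic peak at lin-14, the peak 3864 bp upstream of hbl-1 and the peak downstream of lin-41 described above, and none lay in a promoter window of the 10 genes. Among the 10 genes' regions CACGTG occurred 38 times, 3 of them within 100 bp of an IDR summit, where 4.75% of its 17729 occurrences in the genome were. A pooled summit lay that near in 6 of the 38, where 11.6% of all occurrences were. For both lists the share in these regions was thus above that of the genome, on few occurrences and without a test. Peaks of any kind were also denser there. The regions cover 218673 of 100272607 bp and held 0.862% of the IDR peaks and 0.500% of the pooled peaks. The shares were not compared at equal peak density, so they do not show that CACGTG here is bound more often than elsewhere. lin-42, lin-29 and lin-28 held 6, 6 and 5 copies, none of them near a summit of the IDR or the pooled list. The looser form CANNTG, which includes CACGTG and reads the same on both strands, lay near 19 of the 37 summits (51.4%) and 67.8% of all.

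GAGAGA on either strand lay within 100 bp of 19 of the 37 summits (51.4%), against 44.0% of all IDR peaks and 9.99% of genome windows. It was near 5 of the 6 lin-42 peaks, all 3 mab-10 peaks and 4 of the 11 lin-14 peaks, and near none at daf-12. No window held both GAGAGA and CACGTG, and 15 held neither. ACGCAG on either strand, counted after the sequences had been read, lay near 7 of the 37 (18.9%), 21.9% of all IDR peaks and 3.81% of genome windows, and 4 of the 7 were at lin-42. The longer GACGCAGA lay near 4 of the 37, 3 of them at lin-42 and 1 at daf-12 (10.8%), against 12.2% of all IDR peaks and 0.991% of genome windows. These are matches of letters in a window and not shown to be sites of the factor.

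Each of the 37 IDR peaks had an overlapping peak in both replicates' lists, as 99.7% of all IDR peaks did, the IDR list being derived from both. By the rule of the strongest overlapping peak, the overlapping pair at lin-41 shared theirs. Over the 37, log2(replicate 1/replicate 2) had a median of 0.06 and an SD of 0.52, beside 0.10 and 0.55 over all IDR peaks. By each replicate's strongest overlapping peak, only 2 of the 37 differed by 2 times or more between the replicates. They were the downstream peak at hbl-1, higher in replicate 1, and the lin-14 peak 13460 bp past the start (chrX:11478822-11479217), with 28.6 in replicate 1 and 58.2 in replicate 2. The count depends on that rule. At the hbl-1 promoter summit itself, replicate 1 had 31.1 and the replicate 2 peak 980 bp upstream had 15.3. At the X-linked genes 7 of 18 peaks were higher in replicate 1, at the autosomal genes 15 of 19, where 580 of 1034 and 1920 of 3245 of all such IDR peaks were, and this was not tested. Without lin-14 the X-linked count was 5 of 7. Peaks are not replicates, and with 2 libraries the spread of any single peak rests on 2 values.

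**Figure D3:**
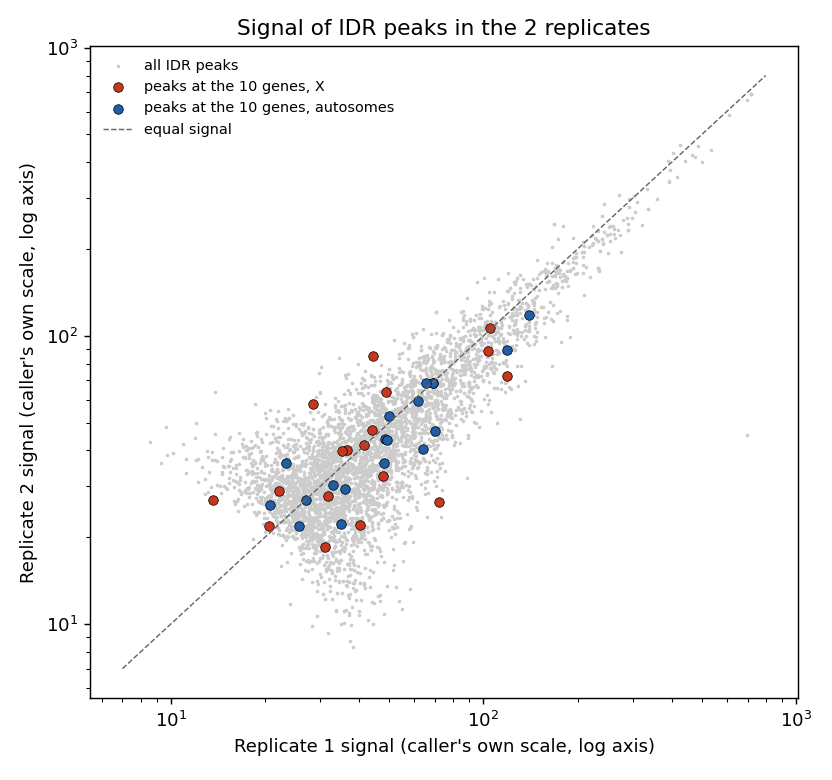
Signal of each IDR peak in replicate 1 (x) and replicate 2 (y), both on log axes and the caller's own scale, for the peaks at the 10 genes (large points, by chromosome) and all IDR peaks (small points). The large points lie along the line of equal signal within the cloud of the others, with the hbl-1 downstream peak farthest below it at 72.1 and 26.5.

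The longer lists held many weaker peaks at the same genes. There were 138 pooled peaks at the 10 genes, 138 in replicate 1's list and 130 in replicate 2's, and every gene had some. Of the pooled peaks 37 (26.8%) were in the IDR list, against 15.6% of all pooled peaks. The share was highest at lin-28 (60.0%), lin-41 (55.6%) and lin-14 (37.9%). It was 11.1% at daf-12 and lin-66 and 7.69% at lin-29, and lin-46 had none. Of the 101 pooled peaks that were not in the IDR list, 61 lay in a gene body outside the promoter window. The highest of them, at lin-42 (40.6), daf-12 (39.1) and lin-14 (38.3), came close to the lowest IDR signal. Of replicate 1's peaks at the 10 genes 73.2% overlapped one of replicate 2 by at least 1 bp, and 77.7% of replicate 2's overlapped one of replicate 1, where 55.6% and 58.0% of the whole lists did.

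**Figure D4:**
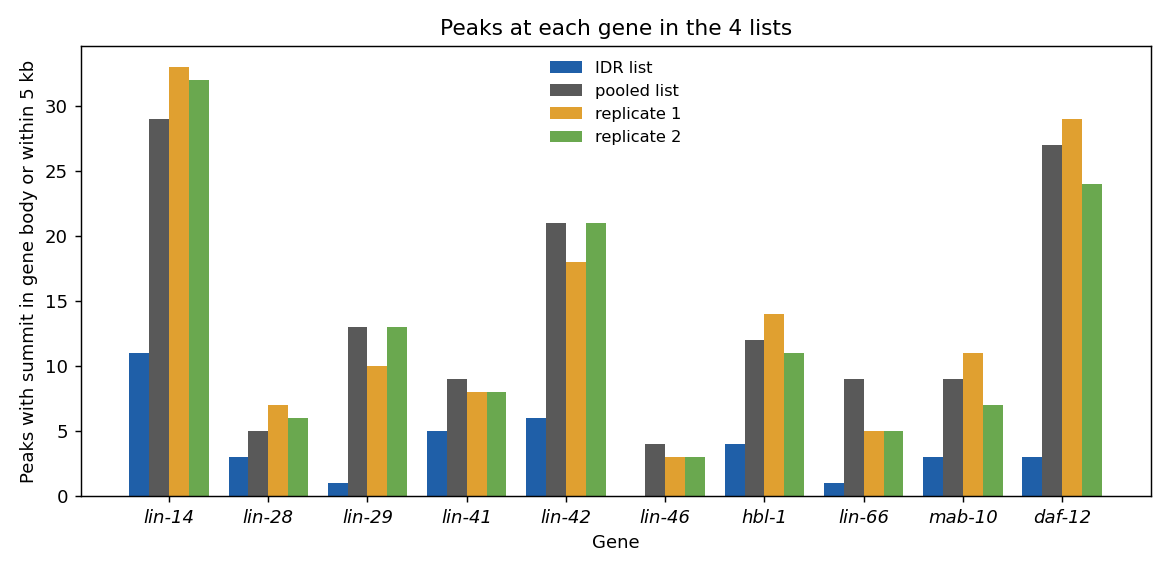
Number of peaks with the summit in the gene body or within 5 kb, for each of the 10 genes in the IDR, pooled, replicate 1 and replicate 2 lists (bars from 0). lin-14 has the most in each list (11, 29, 33 and 32), daf-12 has 27 pooled peaks but 3 in the IDR list, and lin-46 has none in the IDR list.

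Other genes of the timing network were bound to different degrees. Of the 5 timing microRNA genes, all had an IDR summit in the gene or within 5 kb and 2 in the window at their annotated start. Of the 261 annotated microRNA genes, 42.9% had a summit in the wider region and 16.5% in the window at the start. mir-241, of the let-7 family, had a peak of 107 in replicate 1, 103.2 in replicate 2 and 208 pooled, 421 bp upstream (chrV:14366555-14366879), and mir-48 lies close enough to share its region. The lin-4 peak (chrII:5901616-5902011, 440 bp upstream) had 52.5, 34.8 and 87.5. Annotated microRNA starts can be those of the precursor and not of the primary transcript.

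Among 15 microRNA cofactors and other timing regulators, 5 had a promoter summit (10.9% of all protein-coding genes did) and 14 a summit in the wider region (36.3%). The strongest promoter peaks were those of nhl-2, a TRIM-NHL cofactor of microRNAs (293 in replicate 1, 281 in replicate 2 and 568 pooled), puf-9, a Pumilio-family RNA-binding protein (223, 224 and 444), myrf-1, a membrane-bound transcription factor (116, 96.8 and 213), and ain-1, a GW182-type protein (126 pooled). At ain-1 the replicate values of 169 and 172 belong to a stronger overlapping neighbour. kin-20, a casein kinase related to fly Doubletime, had 7 IDR peaks in its region and none in the promoter window.

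In the pathway that makes and reads the DAF-12 ligand, 1 of 8 genes had a promoter summit, the corepressor gene din-1 (183, 155 and 336 pooled), which had 10 IDR peaks in its region. The promoter share, 12.5%, lay near the 10.9% of all protein-coding genes, and the 3 of 8 with a summit in the wider region (37.5%) near the 36.3%. daf-9, the cytochrome P450 of the last step, had 2 in its region and none in the promoter window. None of the 9 regulators of seam cells, the skin stem cells on which the pathway acts, elt-1 and rnt-1 among them, had an IDR summit in the gene or within 5 kb, where 36.3% of all protein-coding genes did. Of 5 adult cuticle genes, 2 had an IDR summit in the wider region (40.0%, near the 36.3% of all). Of the 5, bli-1 alone had a promoter summit (19.8 in replicate 1, 26.1 in replicate 2, 48.98 pooled), and col-19, a target of LIN-29, had none in its region. In whole animals a signal does not tell many weakly occupied cells from few strongly occupied ones, and the cells in which each peak arose are not known.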

How the data were processed

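ChIP-seq of whole L4 larvae from 2 biological replicates, numbered in the labels, was deposited as peak lists. Their descriptions derive a replicate's list from its own alignments and the pooled list from both, each with a further file whose content is not described, and the IDR list from these 3. The replicate and pooled lists hold background peaks too. The deposited score is the signal in column 7, made by the authors with a caller that no label or file names. The aligner, software versions and IDR threshold are likewise unstated, and read depth is unknown. The ce10 lists were not used.

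Summits were placed on Ensembl release 115 annotation of the same assembly as ce11, and windows were read from the RefSeq genome. Coordinates are 1-based. Each summit got the first matching class: promoter, then coding exon, UTR, intron or intergenic. The value of a replicate is its strongest peak overlapping the IDR peak by at least 1 bp. Window edges and motif matching were tested on planted positions. Python 3.11.15, numpy 2.4.6, pandas 2.3.3 and matplotlib 3.10.9 were used.

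The 10 genes, 5 further lists and motifs were chosen with earlier results of these data known, so no test was made. All 10 genes are described with each IDR peak where there were 5 or fewer, and up to 4 genes of each further list with the strongest promoter peak. The genes kin-20, daf-9, elt-1, rnt-1, col-19, mir-48, acp-5 and F02E9.7 were named after their values were seen. Alternatives covered windows, flanks, annotation, signal and single replicates.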

Additional observations from a re-analysis of the deposited data

How the results depend on the processing

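No paired analysis was possible because there is 1 group. Of 39 recomputed values 35 stayed within 1.5 times of the reported count, or within the replicate SD of a reported signal, and 4 did not. The 35 include 9 signals of strongest peaks, which were identical under the rule of the nearest replicate summit. Weaker peaks, where the 2 rules can pick different replicate peaks, were not compared. The 4 that moved were counts. The number of genes with a promoter summit fell from 5 to 3 with a window of 500 bp upstream, without lin-28 and hbl-1, and rose to 8 with the whole pooled list, which adds lin-29, lin-46 and daf-12. Both follow from the construction, a smaller window and a longer list. It was 4 to 5 when the strongest 4293 peaks of a single replicate replaced the IDR list, hbl-1 being lost without replicate 1. The number of IDR peaks fell from 37 to 20 in gene bodies alone and to 22 at or above the median signal, again by construction. With 1 replicate it was 33 to 35. The number of genes with a summit in the gene or within 5 kb stayed at 9 with either replicate alone, and lin-46 had none in either. Peaks with CACGTG numbered 3 to 4 under every window and with each replicate alone. The strongest pooled peak of a gene was also the strongest in replicate 1's list for 9 of 10 genes and in replicate 2's for 7. Read depth is unknown, so a missing peak may be one below detection.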

Other observations

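The flank of 5 kb had no IDR summit close to its edge. The summits farthest out were 3864 bp upstream of hbl-1 (signal 84.1) and 3862 bp past the end of lin-41 (56.8), and the nearest outside was 6098 bp from lin-66 (62.9).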
